A study of Mus musculus with 13 samples.

Results

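The 10 genes Pde1a, Pde1c, Pde2a, Pde3a, Pde3b, Pde4a, Pde4b, Pde4d, Pde5a and Pde8a encode cyclic nucleotide phosphodiesterases, and were matched by symbol among the 55487 gene IDs of the count table. They are 10 of 21 cyclic nucleotide phosphodiesterase genes looked for in the table, and 9 of them are among the 18015 genes that passed the filter on low counts. Pde2a did not pass. RNA came from 3 libraries of pacemaker cells of the sinoatrial node (PC) and 3 libraries of right atrial cardiomyocytes (RACM), all isolated by FACS from neonatal mouse hearts of genotype Hcn4-GFP/Myh6-mCherry. Hcn4-GFP marks cells that express the pacemaker channel gene Hcn4, and Myh6-mCherry marks cardiomyocytes. Each library pooled dissected node and adjoining right atrium from 8 to 10 hearts, and the labels number the libraries p0, p2 and p4 in both cell types without saying what the number stands for or which fluorescence gates were used. The labels name no drug or mutation, and the groups differ in cell type.

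Phosphodiesterases hydrolyse the second messengers cAMP and cGMP, which adenylyl and guanylyl cyclases make. In pacemaker cells cAMP binds the HCN4 channel directly and activates protein kinase A, and both routes speed the beat, so the enzymes that remove cAMP are a brake on heart rate. PDE4 and PDE8 enzymes act on cAMP, PDE5 acts on cGMP, and PDE1, PDE2 and PDE3 enzymes act on both. PDE1 enzymes are switched on by calcium with calmodulin, PDE2 is stimulated by cGMP, and PDE3 is inhibited by cGMP.

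Upstream DNA of the genes that passed the test, Pde1a and Pde8a, is shown because they moved in opposite directions. The table of RefSeq starts (mm10) held 22 starts for 8 of the 10 genes, 4 of them for Pde1a and 1 for Pde8a. The stretches lie within the 250 bases before a start, are trimmed to bases outside annotated exons, and read 5′ to 3′ on the gene's strand. Capitals mark TGACG or its reverse complement CGTCA, the core of the cAMP response element that CREB-family factors bind.
Pde1a, outermost start, chr2:80129459-80129662, minus strand: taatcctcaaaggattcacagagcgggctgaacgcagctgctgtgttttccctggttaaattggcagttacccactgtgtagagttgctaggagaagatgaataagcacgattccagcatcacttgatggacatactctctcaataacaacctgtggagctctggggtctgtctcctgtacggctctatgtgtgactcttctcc
Pde1a, inner start, chr2:80039030-80039152, minus strand: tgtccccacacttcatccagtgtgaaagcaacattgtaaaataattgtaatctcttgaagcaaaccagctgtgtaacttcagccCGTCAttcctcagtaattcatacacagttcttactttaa
Pde8a, chr7:81213015-81213264, plus strand: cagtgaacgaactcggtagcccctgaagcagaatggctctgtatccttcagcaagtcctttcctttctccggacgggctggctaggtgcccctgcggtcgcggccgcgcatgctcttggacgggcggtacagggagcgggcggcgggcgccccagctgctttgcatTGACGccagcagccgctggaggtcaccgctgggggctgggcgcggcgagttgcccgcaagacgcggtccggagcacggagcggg
The core TGACG was present on either strand in the 250 bases before 4 of the 22 starts, 1 each in Pde1a, Pde4a, Pde4b and Pde8a, against 17.7% of the 32817 upstream stretches in the table. The full element TGACGTCA (1.55% of all stretches), the T-box sequence GGTGTGA (3.33%) and the homeodomain core TAATTA (4.85%) were found before none of the 22 starts, searched on both strands. TGACG is contained in TGACGTCA, and GGTGTGA ends in TGA, with which TGACG begins, so matches to these motifs can overlap. These matches describe letters only. The motifs and the stretches printed were chosen after the expression values were seen, and the counts, 1 per gene, do not say which start was used. The inner Pde1a stretch printed is the only Pde1a stretch with a match. A stretch of 216 bases before another inner Pde1a start, with 0 matches, is not shown.

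Pde1a was the most abundant of the 10 transcripts per kilobase of exon in pacemaker cells, and its mean level there was 15.0 times that in right atrial cells. Of the 9 genes tested, 1 was higher in PC (Pde1a) and 1 was lower (Pde8a) at an adjusted p of 0.05 (edgeR quasi-likelihood test with Benjamini-Hochberg adjustment over 18015 genes). Over all genes tested, 3.69% were called higher and 3.57% lower, 7.27% in either direction. The median log2 fold change of the 9 genes, PC minus RACM throughout, was 0.01, the same as that of all genes tested. The PC and RACM libraries did not overlap for 5 of the 10 genes (Pde1a, Pde1c, Pde3b, Pde5a and Pde8a), against 26.9% of all genes tested.

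**Figure D1:**
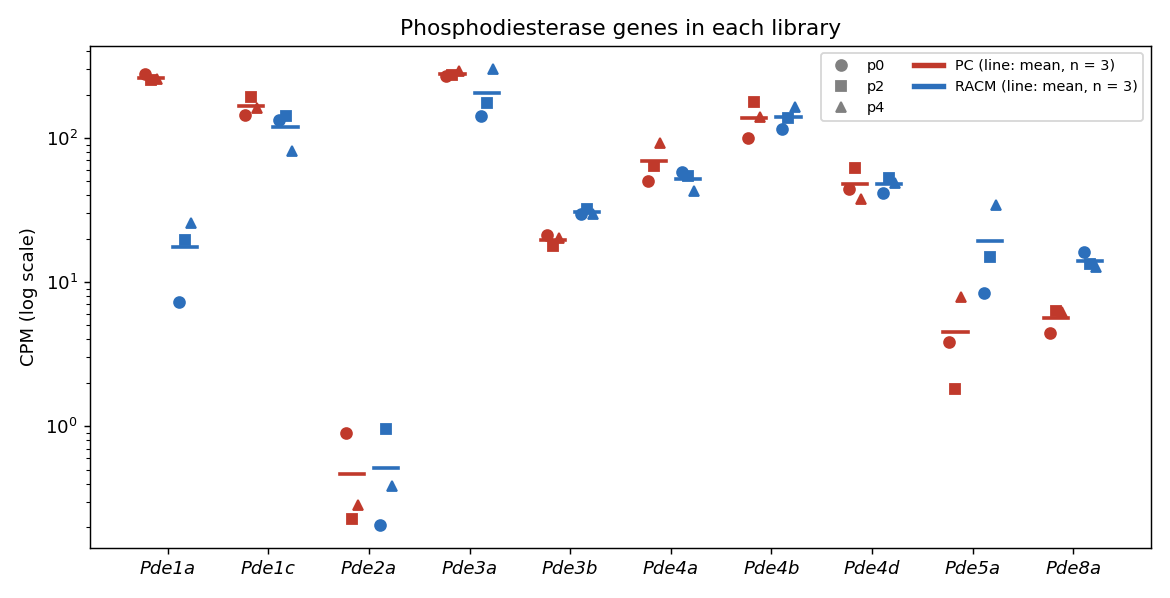
CPM (counts scaled to library size, log scale) of the 10 genes in each library, with circles for p0, squares for p2, triangles for p4 and a line at the mean of 3 libraries. The PC libraries of Pde1a sit between 252 and 279 CPM and its RACM libraries between 7.24 and 25.7 CPM, while the Pde4 genes overlap between cell types and Pde2a stays under 1 CPM.

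Total counts were from 14141151 to 22290996 a library. Pacemaker markers fitted the labels, with 8 of 8 called higher in PC and a summed level of 5211 to 5499 CPM in PC against 201 to 312 CPM in RACM. Hcn4, 1 of these 8, had 2544, 2560 and 2713 CPM in PC and 43.4, 65.7 and 36.3 CPM in RACM, a large part of the PC sum. The cells were sorted from hearts with the Hcn4-GFP reporter, so the Hcn4 call is not independent of the sort. Of 8 atrial working muscle markers 5 were called lower in PC and 0 higher. Their summed level overlapped, at 16283 to 20455 CPM in PC and 17213 to 18501 CPM in RACM. Myl7 (7289 to 8734 against 5053 to 6125 CPM) and Myl4 (8302 to 11045 against 7232 to 7574 CPM) were higher in each PC library. The summed level of 6 general cardiomyocyte markers was 82143 to 95455 CPM in PC and 56333 to 86499 CPM in RACM. In the order p0, p2, p4, which holds for all values by library, summed fibroblast markers came to 845, 958 and 2169 CPM (PC) and to 1596, 3679 and 10699 CPM (RACM), with 1 of 8 called lower in PC. Summed macrophage markers came to 27.7, 9.54 and 49.2 CPM (PC) and to 169, 443 and 771 CPM (RACM), with 8 of 9 called lower in PC. Macrophage sums did not overlap between the cell types, fibroblast sums did, and within each cell type both were highest in p4. Between libraries of the same number, both sums were higher in RACM each time.

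Among the enzymes that act on both nucleotides, the calcium and calmodulin dependent PDE1 genes came apart. Pde1a (ENSMUSG00000059173, chr2:79834453-80129458, minus strand) had 279, 252 and 256 CPM in PC and 7.24, 19.5 and 25.7 CPM in RACM. Each PC library was above each RACM library, by a wide margin even between PC p2 and RACM p4. The means were 262 ± 15.0 CPM (SD, n = 3) in PC and 17.5 ± 9.38 CPM (SD, n = 3) in RACM. The log2 fold change was 3.90 (SE 0.40, 95% interval 3.00 to 4.81, adjusted p = 8.54e-04). The call held in each of 14 alternatives, with log2 fold changes from 3.54 to 4.29 and adjusted p up to 0.00702. Among the 18015 genes tested, Pde1a stood at percentile 94.98 of level per kilobase of exon in PC and at percentile 48.5 in RACM.

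The PC libraries varied little in Pde1a, with a coefficient of variation of 5.72%, and the RACM libraries by 53.8%. Its RACM values stood in the same order, p0, p2, p4, as the fibroblast and macrophage sums in those libraries. Within PC that order did not hold. There Pde1a was highest in p0, where the fibroblast sum was lowest, and lowest in p2, where the macrophage sum was lowest. The part of fibroblast or macrophage RNA in the Pde1a level was not tested. Smooth muscle, where Pde1a is also known to be expressed, was looked at through 9 markers of smooth muscle and pericytes, of which 3 were higher and 2 lower in PC. Their summed level was 667, 429 and 705 CPM in PC and 210, 299 and 673 CPM in RACM, so the groups overlapped through RACM p4. Myh11, the defining smooth muscle myosin, had 25.9, 21.6 and 32.9 CPM in PC and 1.72, 8.24 and 2.54 CPM in RACM. Acta2, smooth muscle actin, had 481, 301 and 533 CPM in PC and 82.1, 99.2 and 291 CPM in RACM, higher than Pde1a in each PC library. Cnn1 had 66.0, 51.0 and 58.9 CPM in PC and 29.2, 27.2 and 27.6 CPM in RACM. Tagln overlapped, with 3.56, 2.14 and 4.52 CPM in PC and 2.34, 2.63 and 4.46 CPM in RACM. Of the pericyte markers, Cspg4 had 44.4, 34.7 and 32.7 CPM in PC and 19.7, 11.7 and 15.1 CPM in RACM. Rgs5 had 31.8, 11.1 and 30.8 CPM in PC and 40.1, 65.5 and 184 CPM in RACM. Pdgfrb had 7.95, 1.64 and 6.46 CPM in PC and 19.7, 49.2 and 72.9 CPM in RACM. Notch3 had 5.28, 5.64 and 6.13 CPM in PC and 8.27, 32.2 and 73.4 CPM in RACM. Kcnj8 had 1.06, 0 and 0 CPM in PC and 6.89, 3.28 and 2.74 CPM in RACM. The part of smooth muscle RNA in the Pde1a level was not tested. In pooled sorted cells, a higher level in each cell and more cells that express the gene cannot be told apart.

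Pde1c (ENSMUSG00000004347, chr6:56069804-56652487, minus strand), the relative with high affinity for both nucleotides, had 145, 191 and 160 CPM in PC and 134, 142 and 81.7 CPM in RACM. The groups did not overlap, but PC p0 lay just above RACM p2. The log2 fold change of 0.48 (SE 0.22, 95% interval -0.03 to 0.98) did not pass the test (adjusted p = 0.270). Per kilobase of exon, the ratio of Pde1a to Pde1c was 6.57, 4.50 and 5.45 in PC. In RACM the ratio was 0.185, 0.468 and 1.07, so Pde1c was the more abundant PDE1 transcript in RACM p0 and p2 and about level with Pde1a in p4.

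Pde3a (ENSMUSG00000041741, chr6:141249269-141507448, plus strand), a cGMP-inhibited phosphodiesterase of heart and vessels, had 271, 274 and 293 CPM in PC and 142, 176 and 302 CPM in RACM. The PC libraries lay close together, and RACM p4 lay above all of them. The log2 fold change of 0.43 (SE 0.26, 95% interval -0.15 to 1.02) did not pass the test (adjusted p = 0.398). Without RACM p4 it was 0.81 with an adjusted p of 0.0402, and over 14 alternatives the adjusted p ran from 0.0402 to 0.711. RACM p4 is the library with the largest fibroblast and macrophage sums, and their part in its Pde3a level was not tested. Of the Pde3a exon bases, 5.82% also belong to Gm28523, and reads there cannot be assigned without strand.

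Pde3b (ENSMUSG00000030671, chr7:114415281-114539251, plus strand), the relative best known from insulin signalling in fat and liver, went the other way. It had 21.2, 17.8 and 20.2 CPM in PC and 29.8, 32.2 and 29.7 CPM in RACM, with no overlap between the groups. The log2 fold change of -0.63 (SE 0.18, 95% interval -1.05 to -0.22) missed the threshold (adjusted p = 0.0759). It passed with the filter of 5 CPM (adjusted p = 0.0426) and with DESeq2 (adjusted p = 0.0273), and over 14 alternatives the adjusted p ran from 0.0273 to 0.268. Per kilobase of exon, the ratio of Pde3a to Pde3b was 9.15, 11.03 and 10.4 in PC and 3.40, 3.92 and 7.28 in RACM. It was thus higher in each PC library than in each RACM library, with RACM p4 nearest.

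Pde2a (ENSMUSG00000110195, chr7:101421691-101512827, plus strand), the cGMP-stimulated phosphodiesterase, was barely counted. It had 16, 4 and 6 counts in PC and 3, 16 and 8 counts in RACM, which is 0.466 ± 0.368 CPM (SD, n = 3) and 0.515 ± 0.391 CPM (SD, n = 3). A difference was not detectable at this depth. Of its exon bases, 64.3% are shared with Gm45837, and reads that fit both genes may have gone uncounted, so the level may be understated.

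The cAMP-specific PDE4 genes, which control cAMP near calcium-handling proteins in rodent heart muscle, did not differ between the cell types beyond the spread of the libraries. Pde4b (ENSMUSG00000028525, chr4:102087543-102607259, plus strand) had 101, 176 and 139 CPM in PC and 116, 138 and 165 CPM in RACM, and the groups overlapped. The fitted log2 difference was -0.01 (SE 0.23, adjusted p = 0.989), and the 95% interval of -0.52 to 0.50 leaves room for a difference of that size either way. Pde4d (ENSMUSG00000021699, chr13:108449948-109953461, plus strand), whose product binds the ryanodine receptor and beta-adrenergic receptor complexes, had 44.6, 61.5 and 37.6 CPM in PC and 41.4, 52.7 and 48.8 CPM in RACM. Its log2 fold change was 0.01 (SE 0.21, 95% interval -0.48 to 0.49, adjusted p = 0.991), and the sign was negative under RLE and upper-quartile scaling. The RACM values of Pde4d all lay inside the PC range.

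Pde4a (ENSMUSG00000032177, chr9:21165714-21213248, plus strand) had 50.6, 64.0 and 91.6 CPM in PC and 58.3, 54.7 and 43.1 CPM in RACM. PC p4 stood above the other libraries, and PC p0 fell inside the RACM range. The fitted log2 difference of 0.40 (SE 0.24, 95% interval -0.13 to 0.94) did not pass the test (adjusted p = 0.391), and it was -0.0039 without both p4 libraries. Ratios among the PDE4 genes overlapped between the groups. Per kilobase of exon, Pde4d over Pde4b was 0.389, 0.307 and 0.238 in PC and 0.314, 0.336 and 0.261 in RACM. Pde4d over Pde4a was 0.562, 0.613 and 0.262 in PC and 0.453, 0.614 and 0.722 in RACM, so PC p4 stood apart from the other libraries in this ratio.

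Pde8a (ENSMUSG00000025584, chr7:81213596-81334533, plus strand), a cAMP phosphodiesterase of high affinity that the inhibitor IBMX does not block, was lower in PC. It had 4.45, 6.26 and 6.17 CPM in PC and 16.1, 13.4 and 12.7 CPM in RACM. All PC values lay below all RACM values. The means were 5.63 ± 1.02 CPM (SD, n = 3) and 14.1 ± 1.83 CPM (SD, n = 3), a level 2.50 times as high in RACM. The log2 fold change was -1.32 (SE 0.29, 95% interval -1.98 to -0.66, adjusted p = 0.0295). The counts behind it were 80, 111 and 131 in PC and 234, 224 and 264 in RACM. The call was lost when any single library was left out, PC or RACM (adjusted p from 0.0523 to 0.111), and without both p4 libraries (adjusted p = 0.0747), while the log2 fold change stayed between -1.48 and -1.17 in 14 alternatives, with adjusted p from 5.20e-04 to 0.111. Within RACM, Pde8a was highest in p0, where the fibroblast and macrophage sums were lowest. Within PC, Pde8a was lowest in p0, where the fibroblast sum was also lowest. The part of fibroblast or macrophage RNA in the Pde8a level was not tested.

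Pde5a (ENSMUSG00000053965, chr3:122728947-122859374, plus strand), the cGMP-specific enzyme that sildenafil inhibits, had 3.84, 1.81 and 7.92 CPM in PC and 8.34, 14.9 and 34.3 CPM in RACM. The groups did not overlap, but PC p4 came close to RACM p0. The log2 fold change of -2.08 (SE 0.63, 95% interval -3.49 to -0.67) missed the threshold (adjusted p = 0.0856). With the p number as a replicate block the value was -2.07 and passed (adjusted p = 0.0135), which made 2 of 9 genes lower, Pde5a and Pde8a, against 5.60% of all genes tested. The block left 1 gene higher, Pde1a, against 5.96% of all genes tested. Pde5a also passed with DESeq2 (adjusted p = 0.00451) and with no filter (adjusted p = 7.43e-04), and over 14 alternatives the adjusted p ran from 7.43e-04 to 0.305, the highest without RACM p4, where the log2 fold change was -1.36. In both cell types the p4 library had the highest Pde5a level and the largest fibroblast sum. The part of fibroblast, pericyte or macrophage RNA in the Pde5a difference was not tested.

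**Figure D2:**
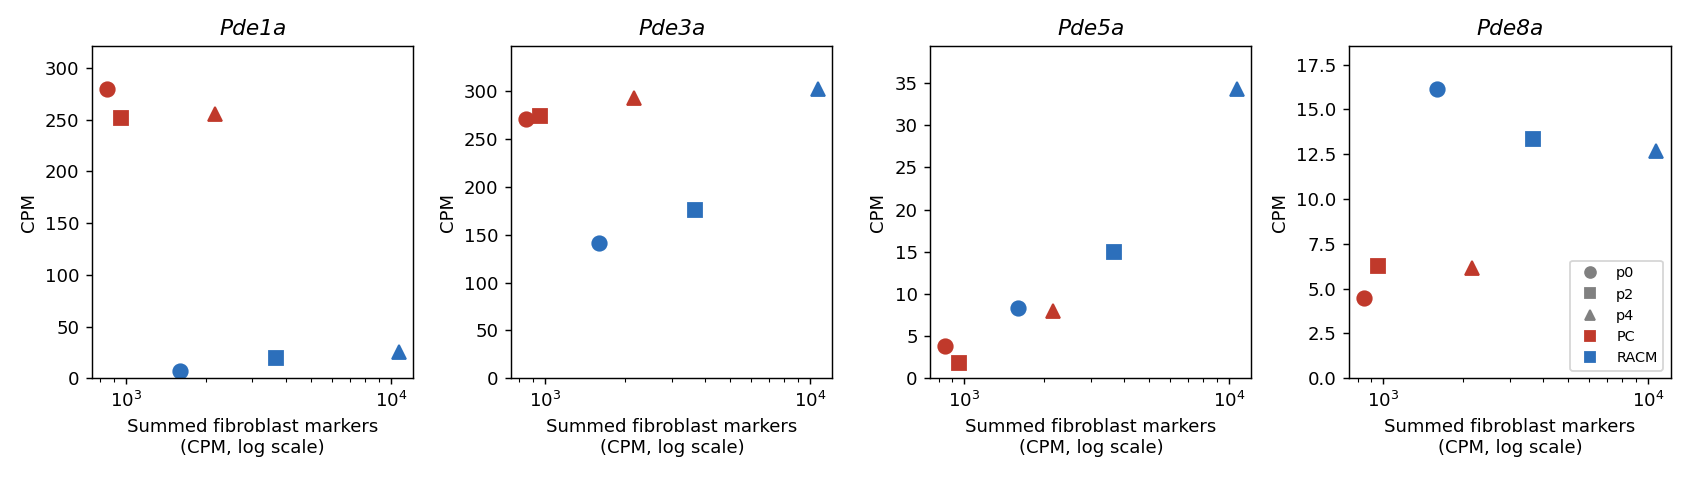
CPM of Pde1a, Pde3a, Pde5a and Pde8a in each library (y axes, each from 0) against the summed CPM of 8 fibroblast markers (x axis, log scale), with red for PC and blue for RACM. In RACM, Pde1a, Pde3a and Pde5a are lowest in p0 and highest in p4, where the fibroblast sum is 10699 CPM, and Pde8a is highest in p0. In PC, Pde1a is highest and Pde8a lowest in p0, and Pde3a and Pde5a are highest in p4.

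**Figure D3:**
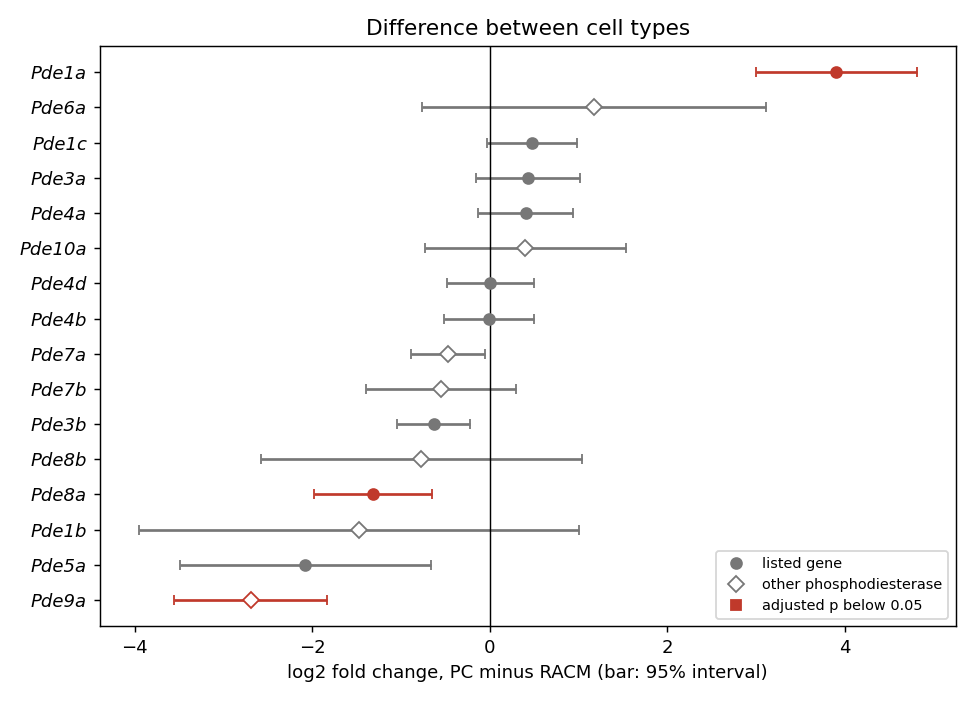
Log2 fold change, PC minus RACM, of the 9 tested genes (circles) and of 7 other tested phosphodiesterase genes (open diamonds), with 95% intervals from the edgeR fit. Pde1a at 3.90, Pde8a at -1.32 and Pde9a at -2.69 have an adjusted p below 0.05 (red), and the Pde4d and Pde4b points lie at 0.01 and -0.01.

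Levels of different genes were compared as CPM per kilobase of exon. In PC the order was Pde1a at 43.6 ± 2.50, Pde3a at 21.9 ± 0.936, Pde4b at 13.1 ± 3.58, Pde4a at 8.98 ± 2.74 and Pde1c at 8.07 ± 1.14 (SD, n = 3). Then came Pde4d at 3.99 ± 1.02, Pde3b at 2.16 ± 0.192, Pde8a at 1.39 ± 0.253, Pde5a at 0.460 ± 0.317 and Pde2a at 0.0758 ± 0.0599 (SD, n = 3). Neighbours overlapped only from Pde4b to Pde4a and from Pde4a to Pde1c. In RACM the order was Pde3a at 16.2 ± 6.64, Pde4b at 13.2 ± 2.29, Pde4a at 6.80 ± 1.04, Pde1c at 5.80 ± 1.59 and Pde4d at 3.97 ± 0.477 (SD, n = 3). Pde8a at 3.47 ± 0.451, Pde3b at 3.35 ± 0.154, Pde1a at 2.90 ± 1.56, Pde5a at 1.95 ± 1.37 and Pde2a at 0.0838 ± 0.0636 followed (SD, n = 3). There, neighbours were separate only between Pde4b and Pde4a and between Pde5a and Pde2a. Pde1a thus ranked 1 of 10 in PC and 8 of 10 in RACM per kilobase. Its first place in PC rests on the division by exon length (6.01 kb, against 12.7 kb for Pde3a). By CPM, Pde3a had the higher PC mean, 279 against 262, and was above Pde1a in PC p2 and p4 but not in p0. The exon length of a gene with several starts may exceed that of the transcript in use, which would lower its level per kilobase.

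Summed over the 10 genes, the level per kilobase was 98.7, 107 and 106 in PC and 49.0, 57.1 and 67.2 in RACM. This sum was 1.80 times as high in PC, with no overlap. Without Pde1a, a sum formed after its values were seen, it was 52.2, 64.7 and 63.7 in PC and 47.8, 53.9 and 62.9 in RACM. On that footing the groups overlapped. The 4 cAMP-specific genes summed to 27.5 ± 5.74 in PC and 27.5 ± 1.24 in RACM (SD, n = 3). The genes that act on both nucleotides summed to 75.9 ± 1.34 and 28.4 ± 6.61 (SD, n = 3). Of these sums, Pde1a alone made up 43.6 in PC and 2.90 in RACM.

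As a share of the summed level, Pde1a made up 47.1%, 39.3% and 40.1% in PC and 2.45%, 5.67% and 6.36% in RACM. The 3 Pde4 genes together made up 25.0% ± 4.32 in PC and 41.9% ± 3.84 in RACM (SD, n = 3), although their own levels did not differ beyond their spread. The cAMP-specific share was 26.3% ± 4.51 in PC and 48.1% ± 5.47 in RACM (SD, n = 3). Shares sum to 100% in a library, so the rise of Pde1a lowers the others by construction. Among the 9 genes other than Pde1a, a footing also chosen after its values were seen, Pde3a held 40.8%, 33.2% and 36.1% in PC and 23.2%, 25.7% and 37.7% in RACM, with overlap through RACM p4. Pde4b held 21.6% ± 3.84 and 24.0% ± 0.909 on that footing (SD, n = 3), again with overlap. Pde8a held 2.11%, 2.39% and 2.40% in PC and 8.33%, 6.14% and 4.98% in RACM, and Pde3b and Pde5a were the other genes without overlap, both lower in PC. These sums and shares are descriptions with no test. The table has 1 count per gene, so splice forms, such as the long and short forms of PDE4 enzymes, were not separated.

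**Figure D4:**
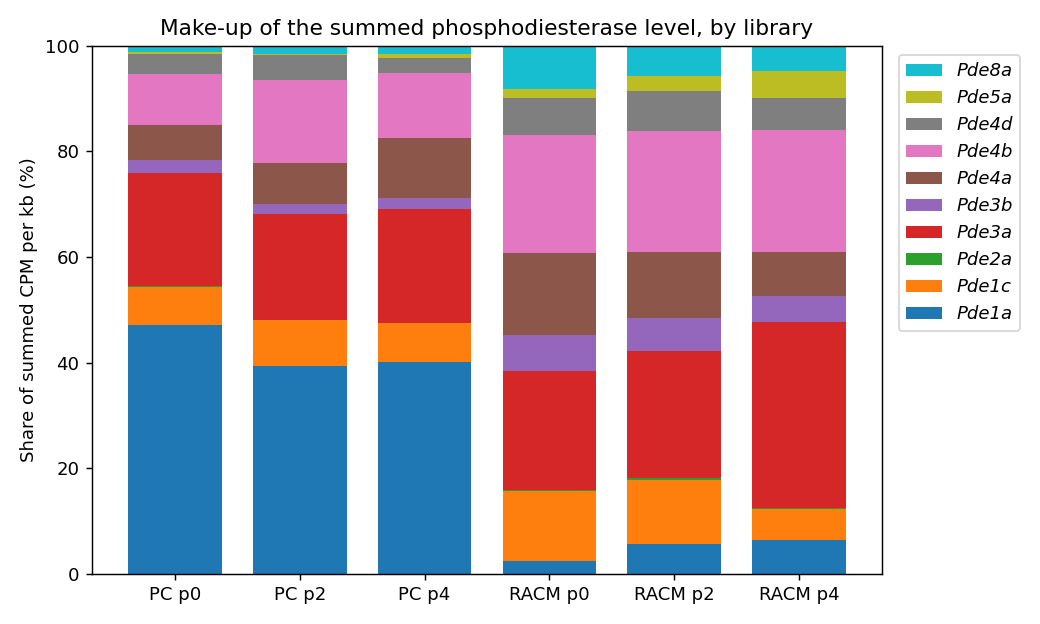
Share of the summed CPM per kilobase of exon that each of the 10 genes takes in each library (stacked to 100%). The lowest block, Pde1a, covers 39.3% to 47.1% of the PC bars and 2.45% to 6.36% of the RACM bars.

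Of 11 phosphodiesterase genes outside the 10, 7 passed the filter and 1 was called, Pde9a, a cGMP-specific enzyme of high affinity. Over all genes tested, 3.57% were called lower in PC and 7.27% in either direction. Pde9a had 2.23, 1.75 and 1.41 CPM in PC and 9.03, 14.2 and 11.7 CPM in RACM, and was lower in each PC library. For Pde9a the log2 fold change was -2.69 (SE 0.38, adjusted p = 0.00441), and the call held in 14 of 14 alternatives with adjusted p up to 0.0362. Other genes share 8.34% of its exon bases. The median log2 fold change of the 7 genes was -0.55, against 0.01 over all genes tested. It was -0.35 without PC p4, -0.82 without RACM p0, -0.36 without both p4 libraries and -0.77 with no filter.

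The other genes of cyclic nucleotide signalling were counted by role. Over all 18015 genes tested, edgeR called 3.69% higher and 3.57% lower, DESeq2 called 2304 genes and limma-voom 1068. No share over all genes is given for unadjusted p-values. Of 8 adenylyl cyclase genes tested, 1 was higher and 1 lower in edgeR, with 2 higher and 3 lower at an unadjusted p under 0.05. DESeq2 called 1 higher and 3 lower, and limma-voom 1 higher and 1 lower. Adcy5, a main cardiac adenylyl cyclase that calcium inhibits, had 176, 198 and 185 CPM in PC and 105, 111 and 74.8 CPM in RACM. Its log2 fold change was 0.95 (SE 0.18, adjusted p = 0.0168), and it missed the threshold without PC p0, without PC p2 and without both p4 libraries (adjusted p = 0.0536, 0.0521 and 0.0581). Adcy1, which calcium with calmodulin stimulates, had 23.4, 24.0 and 17.4 CPM in PC and 46.5, 48.5 and 47.8 CPM in RACM. For Adcy1 the log2 fold change was -1.14 (SE 0.19, adjusted p = 0.00894). Per kilobase, Adcy5 stood at 26.0 in PC against 1.72 for Adcy1. Of 5 guanylyl cyclase genes tested, edgeR called 0, with 2 at an unadjusted p under 0.05, DESeq2 called 1 and limma-voom 0. With the block 1 was lower, Gucy1a2 (adjusted p = 0.0314), with 33 counts in all PC libraries and 187 in all RACM libraries.

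Of 15 effector genes tested, 3 were higher and 1 lower in edgeR, against 3.69% higher and 3.57% lower of all genes tested. At an unadjusted p under 0.05 in edgeR, 6 were higher and 1 lower. DESeq2 called 4 higher and 1 lower, and limma-voom 3 higher and 1 lower. The genes below are those called by edgeR. Prkg1, the cGMP-dependent protein kinase, had 143, 123 and 108 CPM in PC and 54.7, 67.3 and 65.2 CPM in RACM (log2 fold change 0.997, SE 0.17, adjusted p = 0.00985). Prkaca, the main catalytic subunit of protein kinase A, had 165, 222 and 217 CPM in PC and 121, 114 and 112 CPM in RACM. Its log2 fold change was 0.80 (SE 0.16, adjusted p = 0.0217). It missed the threshold when p2 or p4 of either cell type was left out, and without both p4 libraries together (adjusted p from 0.0594 to 0.116). Pkib, an inhibitor of protein kinase A, had 0.278, 0.0564 and 0 CPM in PC and 5.03, 6.92 and 3.31 CPM in RACM (adjusted p = 0.0109), and missed the threshold without RACM p2 (adjusted p = 0.0581). Pkia, another inhibitor of the kinase and the third gene higher, had 126, 104 and 113 CPM in PC and 72.1, 71.9 and 79.5 CPM in RACM (adjusted p = 0.0419). So of the 2 inhibitor genes called, the abundant one was higher in PC and the scarce one lower. Pkia was named after its values were seen.

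Of 19 genes for anchoring proteins and phosphodiesterase partners, 0 were higher in edgeR, with 3 at an unadjusted p under 0.05. DESeq2 and limma-voom called 0 higher. In edgeR 1 was lower, against 3.57% of all genes tested. Arrb2, a beta-arrestin that brings PDE4 to activated receptors, had 4.84, 3.95 and 3.54 CPM in PC and 7.17, 12.5 and 20.8 CPM in RACM. Its log2 fold change was -1.72 (SE 0.42, adjusted p = 0.0426), and the call was lost with limma-voom, without both p4 libraries and without each library but RACM p0 (adjusted p from 0.0706 to 0.241). Its RACM values stood in the order of the macrophage sum, whose part was not tested. Neither of the 2 exporter genes, Abcc4 and Abcc5, was called by edgeR, DESeq2 or limma-voom, and 0 had an unadjusted p under 0.05 in edgeR.

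Of 10 protein kinase A substrate genes, 2 were higher and 0 lower in edgeR, and 0 were lower at an unadjusted p under 0.05 or by DESeq2 or limma-voom. Cacna1d, which encodes the calcium channel CaV1.3 of the node, had 261, 362 and 252 CPM in PC and 106, 110 and 55.4 CPM in RACM (log2 fold change 1.69, SE 0.28, adjusted p = 0.00855). Pln, which encodes phospholamban, the inhibitor of the calcium pump SERCA, had 377, 339 and 335 CPM in PC and 168, 80.8 and 91.5 CPM in RACM (log2 fold change 1.63, SE 0.27, adjusted p = 0.00857). Other genes, Cep85l among them, share 64.7% of the Pln exon bases. Together the lists of cyclases, effectors, partners, exporters, substrates and other phosphodiesterases had 6 genes higher and 4 lower. Over all genes tested, 3.69% were higher and 3.57% lower. Their median log2 fold changes were 0.11, 0.23, 0.16, 0.09, 0.03 and 0.31 for adenylyl cyclases, guanylyl cyclases, effectors, partners, exporters and substrates. Several of these medians were unsteady over the alternatives. They ran from -1.13 to 0.34 for adenylyl cyclases, from -0.03 to 0.16 for partners and from -0.09 to 0.28 for exporters, each with a change of sign, and from 0.09 to 0.45 for effectors, with the highest value without PC p4.

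**Figure D5:**
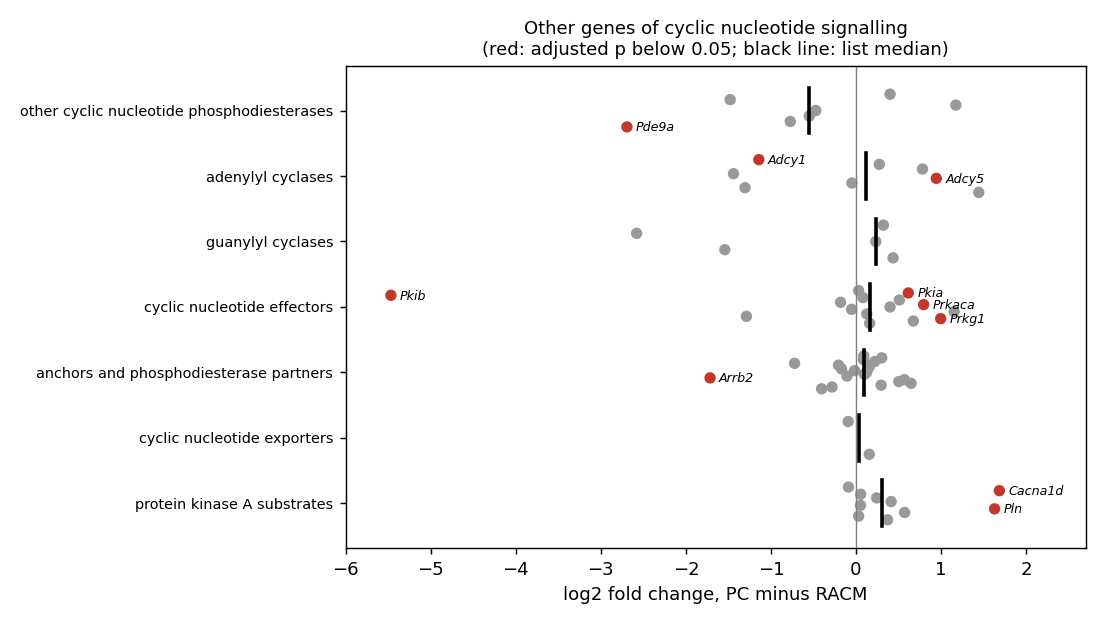
Log2 fold change, PC minus RACM, of each tested gene of 7 lists of cyclic nucleotide signalling, with red for an adjusted p below 0.05 and a black line at the list median. Most genes lie near 0, and the red points run from Pkib on the left to Cacna1d at 1.69 and Pln at 1.63 on the right.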

How the data were processed

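Per the labels' protocols, cDNA was made with the NuGEN Ovation V2 kit, which amplifies RNA, and read as 100-bp pairs. The deposited values are raw counts of read pairs per gene, which the authors obtained with featureCounts 2.0.1 over mm10 exons, per the file headers, with no option set for strand or for reads with several positions. The submitters' processing notes also name Trimmomatic, HISAT2 and edgeR. The deposited exon length per gene, per the file headers, gave levels per kilobase.

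Low genes were removed with filterByExpr (cell type as group, at least 10 counts and 15 in total), and the rest were scaled by TMM and tested in edgeR 4.0.16 (R 4.3.3, glmQLFit and glmQLFTest, 2-sided, Benjamini-Hochberg over 18015 genes, threshold 0.05). Standard errors are the log2 fold change over the square root of F. CPM used TMM-scaled library sizes. Total counts of 14141151 to 22290996 limit the precision of genes with few counts. Amplified reads are not independent molecules. The labels call the pools biological replicates and leave unsaid whether equal numbers mean a shared pool, so p-values measure the spread between these samples. An exact test of 3 against 3 cannot go below 0.1 and none is given.

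Deviations from the cell type mean of log2(CPM + 1) correlated by 0.219, 0.306 and 0.282 between the PC and RACM libraries numbered p0, p2 and p4. The numbers were therefore used to pair the libraries in the alternative fit with the replicate block. The main test has cell type as its only term, so its p-values do not take this pairing into account. This pairing is read from the data, as no label states it. No libraries were near-identical (chi-square per degree of freedom 26.2 to 65.6).

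The members and lists were chosen with earlier results of these data known. Named genes are the 10 members, called phosphodiesterases outside them, and per list the 3 called genes of smallest p; Gucy1a2, Pkia and the smooth muscle and pericyte markers were added after values were seen. The alternatives tried were scaling by RLE or upper quartile, no filter, a filter of 5 CPM, DESeq2 1.42.0, limma-voom (limma 3.58.1), the replicate block and left-out libraries. Scripts were tested on simulated data. A planned comparison of protein sequences was not run. ATAC-seq data were not used here.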

Additional observations from a re-analysis of the deposited data

How the results depend on the processing

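The number of the 9 genes called higher in PC was 1 in the main analysis and from 1 to 2 with single libraries left out. The number lower was 1, and became 2 with no filter, 2 with the filter of 5 CPM, 3 with DESeq2, 2 with the replicate block, 0 without both p4 libraries and 0 to 0 with single libraries left out. The replicate block changed the call of no other of the 10 genes than Pde5a. Other pathway genes lower in PC numbered 4, against 7 with DESeq2 and 2 to 6 with single libraries left out, and those higher numbered 6, against 3 to 7 with single libraries left out. Calls over all genes, in either direction, numbered 1309 of 18015. They numbered 2339 with no filter (33066 genes tested), 1180 with the filter of 5 CPM (10809 genes tested), 2304 with DESeq2 and 2082 with the block. Without both p4 libraries they numbered 734, and with single libraries left out 511 to 1338. The share of all genes called lower was 3.57% in the main analysis and 5.60% with the block, and is not given for the other settings. The counts of the 9 genes are to be read beside these. With no filter the median log2 fold change of all genes was -0.12. The sign of Pde4d turned to -0.0063 (RLE), -0.048 (upper-quartile), -0.059 (filter of 5 CPM), -0.0064 (DESeq2), -0.028 (limma-voom) and -0.015 (replicate block), and ran from -0.20 to 0.16 with single libraries left out. Pde4b ran from -0.21 to 0.18 with single libraries left out and was 0.10 without both p4 libraries, where Pde4a was -0.0039. Without division by exon length the summed level differed by 0.63 in place of 0.86 on the log2 scale, and the share of Pde1a by 24.0 in place of 37.3 percentage points. The Pde4d over Pde4a log2 ratio differed by -0.39, and by 0.15 without both p4 libraries. The causes were not tested, except that leaving out libraries leaves fewer samples. Depth limits Pde2a, with 26 counts in all PC libraries and 27 in all RACM libraries.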
